A study of Mus musculus with 15 samples.

Results

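The lysosome genes described here are 43 genes for hydrolases, cathepsins, the proton pump, lysosomal membrane proteins and the transcription factors known to drive them. They form a list of names drawn up by function, with earlier results of these data known, and the rule uses no measured value. All 43 were found among the 51763 genes of the count table by gene identifier. By role they comprised 13 cathepsins and other proteases, 8 glycosidases, 8 lipid-handling proteins, 5 subunits of the vacuolar ATPase (V-ATPase), 6 membrane proteins and 3 regulators. All 43 passed the filter on low counts, as did 16919 genes in all.

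RNA was sequenced from bone marrow-derived macrophages (BMDMs) of wild-type female C57BL/6NTac mice, young adults at bone marrow collection, whose cells were pooled before seeding. BMDMs are macrophages grown from marrow progenitors in culture, here for 10 days with macrophage colony-stimulating factor by the sample labels and for a somewhat shorter time by the study's methods. After a night in low serum the cells were left with PBS or stimulated for 24 h, with 3 libraries per condition. Both HMGB1 forms were given at 5 µg/mL, the fully reduced one (frHMGB1) and the disulfide one (dsHMGB1), and bacterial lipopolysaccharide (LPS) at 1 µg/mL. The fifth condition was LPS together with interferon gamma at 20 ng/mL (LPS/IFNγ), the classical M1 stimulus. HMGB1 is a nuclear protein that acts as an alarm signal outside the cell. The study states that all its redox forms can bind the receptor RAGE and that the disulfide form signals through TLR4. The LPS dose of LPS/IFNγ was 1 µg/mL in the treatment field and 100 ng/mL in the protocol text, so LPS/IFNγ and LPS may also differ in LPS dose. The 3 libraries of a condition were technical replicates of a single pool of cells. Every error and p-value below measures the spread between these replicates, not between mice.

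Lysosomes are acidic compartments in which macrophages digest what they engulf. The V-ATPase pumps protons into them, and most of the hydrolases within work only at low pH. Transcription factors of the MiT/TFE family (TFEB, TFE3, MITF and TFEC) bind a short palindrome, the CLEAR element, near the start of many lysosome genes and raise their transcription.

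The promoter sequences below are shown because the regulators among the members are the factors that bind them. RefSeq promoter windows (GRCm38.p6, 250 bases before to 50 after an annotated start) were matched by symbol for 35 of the 43 members. The letters CACGTG, the core of the element, read the same on both strands and stood in a window of 12 of these 35 genes (34.3%), against 8.09% of the 27025 symbols in the promoter table. The longer palindrome TCACGTGA, which contains CACGTG, stood in a window of 6 of the 35 (17.1%), against 1.12% of all symbols. Among 85 further lysosome genes, listed by function and described below, 66 had a window, 20 of them with CACGTG and 9 with TCACGTGA. These counts describe letters in a window and say nothing about binding in these cells. The first stretch is that of Lamp1, whose window held the letters 4 times, and the other 6 are those with the longer palindrome. Each is written on the strand of its gene, with CACGTG in capitals.
Lamp1 (chr8:13159090-13159160, plus strand): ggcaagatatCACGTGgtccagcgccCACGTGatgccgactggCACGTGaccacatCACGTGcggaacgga
Ctsd (chr7:142387910-142387935, minus strand): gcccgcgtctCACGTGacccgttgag
Ctsa (chr2:164833751-164833772, plus strand): agcaaactgtCACGTGatgcag
Cln3 (chr7:126583342-126583367, minus strand): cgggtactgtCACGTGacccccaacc
Mcoln1 (chr8:3500464-3500489, plus strand): gcgccccgctCACGTGaccgcggcgc
Atp6v1a (chr16:44139375-44139400, minus strand): ttttttaaatCACGTGataggcttaa
Gla (chrX:134601184-134601209, minus strand): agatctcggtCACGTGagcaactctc
In GENCODE M21 the Lamp1 stretch lay outside every exon, the Atp6v1a stretch lay within the gene but in no exon, those of Ctsd, Ctsa, Cln3 and Mcoln1 overlapped exons of transcripts with an earlier start, and that of Gla overlapped an exon of the neighbouring Hnrnph2.

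The libraries held 40934540 to 80925478 counts, and the cells carried macrophage RNA throughout. The 8 macrophage markers checked (among them Csf1r, Lyz2 and Adgre1) summed to 17100 to 31200 CPM (counts scaled to a common library total), whereas the T-cell markers Cd3d, Cd3e and Cd3g were at 0 in every library. Of 6 neutrophil markers 3 (Ly6g, S100a9 and Mpo) were at 0, and the 6 summed to 2.1 to 5.47 CPM in PBS, 2.0 to 2.25 after frHMGB1, 2.19 to 4.52 after dsHMGB1, 4.24 to 4.63 after LPS and 1.97 to 2.55 after LPS/IFNγ. The 5 dendritic-cell markers summed to 4.23 to 5.29 CPM in PBS, 3.39 to 4.45 after frHMGB1, 3.35 to 4.39 after dsHMGB1, 7.89 to 8.73 after LPS and 13.9 or more after LPS/IFNγ. The macrophage sum itself moved with condition, from 24700 to 30600 CPM in PBS to 18600 to 19200 in LPS and 17100 to 17500 in LPS/IFNγ. On the log2 scale of normalized counts, Adgre1 (1.09), Mertk (2.01), Cd14 (3.1) and Fcgr1 (1.71) were higher in LPS than in PBS. Csf1r (-0.44) was lower, each at an adjusted p under 0.05 by edgeR. Lyz2 (-0.05), Itgam (0.08) and Mpeg1 (0.0) did not pass that threshold. In LPS/IFNγ, Lyz2 (-0.32) and Csf1r (-0.41) were lower, Itgam (0.21) did not pass, and the other macrophage markers were higher. The 5 fibroblast markers summed to 111 to 266 CPM in PBS and to 180 to 235 CPM in the other conditions, and the 3 endothelial markers to 11.7 to 30.8 CPM in PBS and 98.9 to 104 in LPS/IFNγ. The part of these genes in the results was not tested. PBS replicate 3 stood apart. Its Pearson correlation with the other PBS libraries over log2 CPM was as low as 0.934, against 0.987 to 0.993 between all other replicates, and it carried 6.77% of its counts on the ferritin gene Fth1, against at most 2.55% in any other library.

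PBS replicate 3 also shifted the lysosome genes themselves. Relative to the mean of PBS replicates 1 and 2, the members lay between -2.75 and 1.61 on the log2 scale in PBS replicate 3, and 11 of the 43 were more than 1 log2 unit away. Between PBS replicates 1 and 2 the same range was -0.12 to 0.46. The ratio followed the summed length of a gene's annotated exons, with a Spearman rho of -0.49 over the 43 members and -0.51 over 13025 protein-coding genes, which are not independent of each other. The shorter Ctsd, Ctsz and Cd63 were high in that library and the longer Npc1, Tpp1 and Man2b1 were low, while Ctse and Asah1 were low at a short length. The members' fold changes over PBS are therefore plotted both with all libraries and without PBS replicate 3, which was decided after the data were seen, and for dsHMGB1, LPS and LPS/IFNγ the text gives a member's second value where it ends or makes a call or moves a called value by over 1.5 times. The spread was estimated over all libraries together, and without PBS replicate 3 more members were also called between the other conditions.

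**Figure D1:**
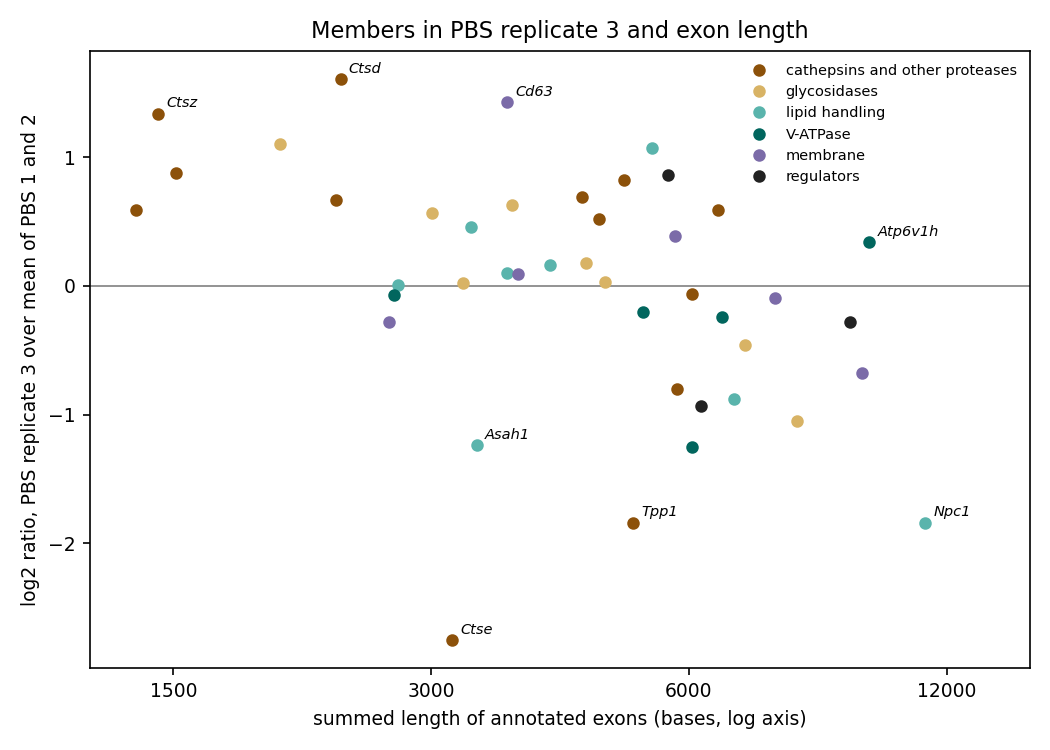
Each point is one of the 43 members, coloured by role. The x axis is the summed length of its annotated exons in bases (log axis) and the y axis the log2 ratio of normalized counts in PBS replicate 3 to the mean of PBS replicates 1 and 2. Points run from 1.61 (Ctsd) to -2.75 (Ctse), with a Spearman rho of -0.49.

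The members made up a large part of the macrophage transcriptome, and that part was smaller after dsHMGB1, LPS and LPS/IFNγ. Together the 43 genes took 10.09% ± 0.45 of all counts in PBS and 9.75% ± 0.04 after frHMGB1 (SD, n = 3 each). Their share was 6.22% ± 0.32 after dsHMGB1, 4.96% ± 0.05 after LPS and 4.87% ± 0.03 after LPS/IFNγ (SD, n = 3 each). The PBS libraries (9.76% to 10.60%) did not overlap with those of dsHMGB1 (5.90% to 6.53%), nor dsHMGB1 with LPS (4.91% to 5.00%), whereas LPS and LPS/IFNγ (4.85% to 4.91%) met at 4.91%. A share of counts falls when other genes take more of the library, and it rests on a few abundant members: Ctsb took 2.40%, Psap 2.34% and Ctsd 1.20% of the counts in PBS replicate 1. In bulk RNA, fewer cells of a kind and less RNA per cell cannot be told apart.

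**Figure D2:**
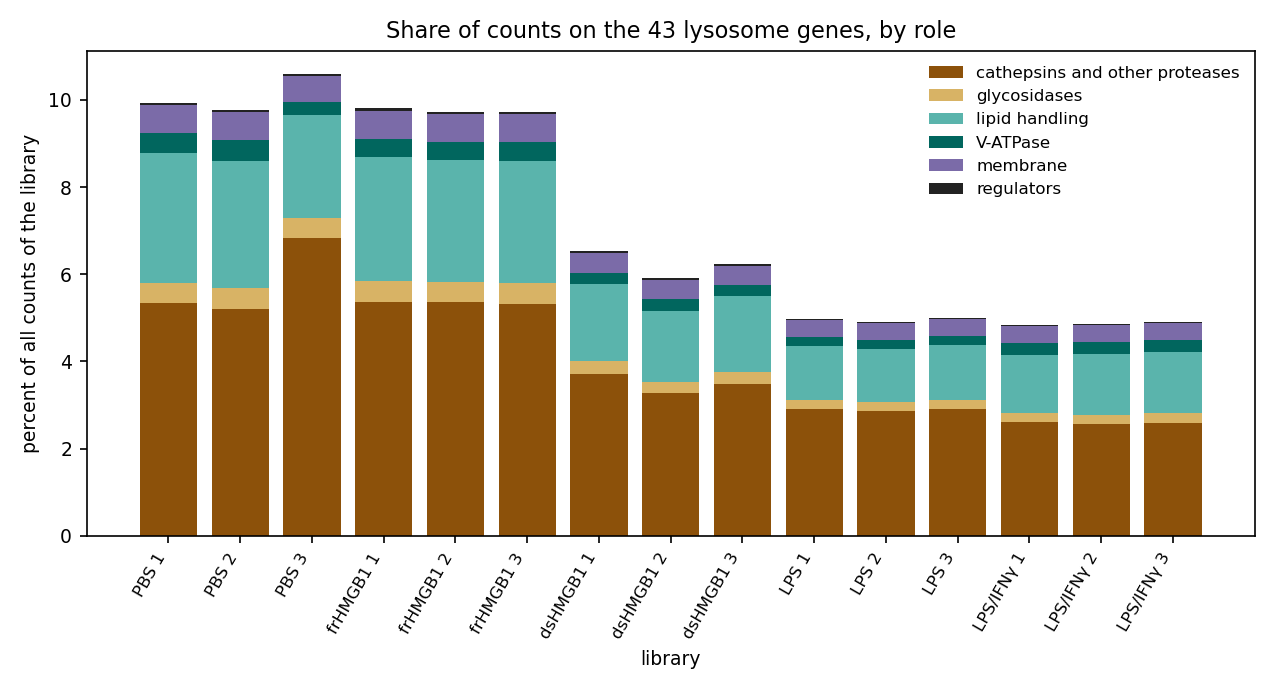
Bars show the percent of all counts of each library on the 43 members, stacked by role, starting at 0. The PBS and frHMGB1 libraries reach 9.72% to 10.60%, the dsHMGB1 libraries 5.90% to 6.53%, and the LPS and LPS/IFNγ libraries 4.85% to 5.00%.

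The fold changes below use normalized counts, in which the bulk of the genes, not the library total, sets the scale. A gene was called when its adjusted p was under 0.05 over all genes tested. In frHMGB1, 1 of 43 members was called higher (1.31% of all genes tested were) and 0 were called lower (5.69% of all genes). At an unadjusted p under 0.05 edgeR gave 3 members higher and 4 lower, and DESeq2 called 3 higher and 3 lower. The shares of all genes under these criteria were not computed, so these counts have no background to be read against. In dsHMGB1, 5 members were called higher (11.6%, against 23.3% of all genes) and 20 lower (46.5%, against 24.2%). In LPS, 6 were called higher (14.0%, against 26.7%) and 23 lower (53.5%, against 36.2%). In LPS/IFNγ, 6 were called higher (14.0%, against 29.0%) and 22 lower (51.2%, against 31.2%). With each pair of conditions fitted alone, 8 members were called lower after dsHMGB1 (18.6%, against 14.2% of all genes), 13 after LPS (30.2%, against 24.5%) and 10 after LPS/IFNγ (23.3%, against 22.4%). The members were more abundant than most genes, with a median of 25310 normalized counts against 424.2 over all genes tested, and abundant genes are called at smaller changes.

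Over the members the median log2 fold change was -0.03 for frHMGB1 (all genes tested: -0.01), -0.29 for dsHMGB1 (-0.10), -0.23 for LPS (-0.21) and -0.33 for LPS/IFNγ (-0.12). In LPS the members' median thus lay close to that of all genes with all libraries. Without PBS replicate 3 the medians were 0.06 for frHMGB1 (all genes tested: 0.01) and -0.19 for dsHMGB1 (0.02). They were then -0.26 for LPS (-0.10) and -0.18 for LPS/IFNγ (0.04). The study took a log2 fold change above 2 or below -2 as its cut-off, and past it lay 0 members in frHMGB1 (7.44% of all genes tested), 1 after dsHMGB1 (13.2%), 2 after LPS (24.9%) and 2 after LPS/IFNγ (21.8%). The member past it in dsHMGB1 was Ctsc, and for LPS and LPS/IFNγ they were Ctsc and Tfeb. Leaving out PBS replicate 3 gave 6 higher and 5 lower in frHMGB1 (8.41% and 9.09% of all genes), 7 and 30 after dsHMGB1 (29.8% and 29.0%), 10 and 27 after LPS (32.9% and 38.3%) and 8 and 29 after LPS/IFNγ (33.3% and 34.4%). With library totals as the only scaling, a choice added after the data were seen, the median of all genes, by edgeR, moved from -0.11 to -0.46 in dsHMGB1, from -0.27 to -0.89 in LPS and from -0.15 to -0.81 in LPS/IFNγ. The members called were then 3 higher and 29 lower after dsHMGB1 (15.5% and 39.5% of all genes), 3 and 34 after LPS (15.7% and 55.9%) and 3 and 33 after LPS/IFNγ (17.6% and 51.9%), and the 3 that stayed higher were Ctsc, Cln3 and Mitf. Of the called differences from PBS, those of Atp6v0a1 in LPS and of Atp6v1h in dsHMGB1, LPS and LPS/IFNγ changed sign under that scaling. Where 3 log2 fold changes follow a gene's name below, they are those of dsHMGB1, LPS and LPS/IFNγ over PBS, in that order.

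**Figure D3:**
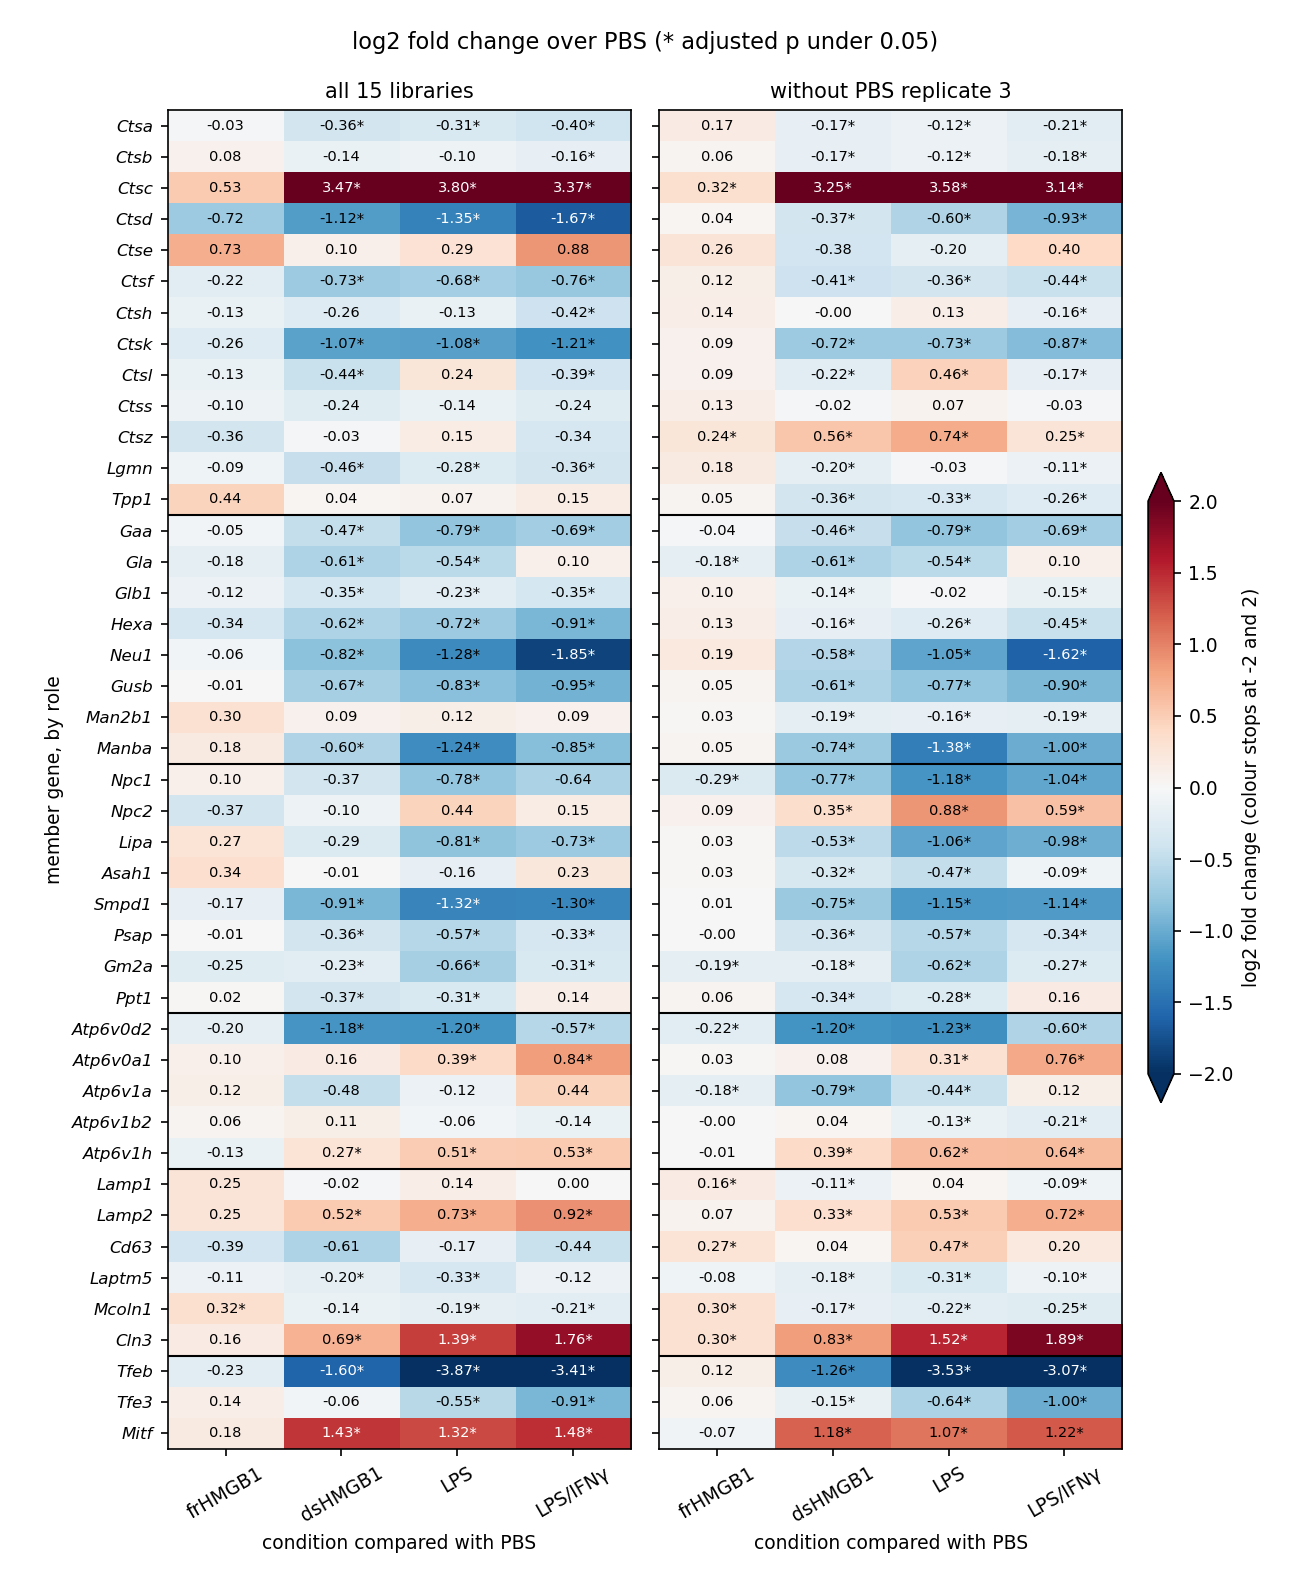
Rows are the 43 members in order of role (cathepsins and other proteases, glycosidases, lipid handling, V-ATPase, membrane, regulators) and columns are the 4 stimulations compared with PBS, with all libraries on the left and without PBS replicate 3 on the right. Cells give the log2 fold change, with a star at an adjusted p under 0.05. Ctsc, Cln3 and Mitf are red and Tfeb is blue in dsHMGB1, LPS and LPS/IFNγ in both panels, whereas Ctsz and Npc2 differ between them.

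The regulators moved in opposite directions. Tfeb (ENSMUSG00000023990, chr17:47737030-47792419) encodes a master factor of lysosome genes. It stood at 6216, 5831 and 10900 normalized counts in PBS, 6784, 6248 and 6586 in frHMGB1, 2750, 2256 and 2546 in dsHMGB1, 591, 475 and 503 in LPS, and 697, 740 and 725 in LPS/IFNγ. The dsHMGB1 libraries lay between those of PBS and those of LPS and LPS/IFNγ without overlap. Tfeb fell on the log2 scale, with -1.60 (SE 0.21, adjusted p = 6.21e-06) for dsHMGB1, -3.87 (SE 0.21, adjusted p = 1.08e-09) for LPS and -3.41 (SE 0.21, adjusted p = 3.15e-09) for LPS/IFNγ, each given with its standard error (SE). If PBS replicate 3 was left out, these were -1.26, -3.53 and -3.07. Tfeb was higher in dsHMGB1 than in LPS by 2.27 (SE 0.21, adjusted p = 1.36e-06) and than in LPS/IFNγ by 1.80 (SE 0.21, adjusted p = 4.02e-06).

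Tfe3 (ENSMUSG00000000134, chrX:7762560-7775202) encodes a close relative of TFEB with an overlapping set of targets. Its values were 8768, 8310 and 7032 normalized counts in PBS, 9081, 8836 and 8696 in frHMGB1, 7569, 7609 and 7930 in dsHMGB1, 5475, 5418 and 5627 in LPS, and 4347, 4214 and 4297 in LPS/IFNγ. The libraries of LPS and LPS/IFNγ lay below all PBS libraries, and those of dsHMGB1 lay within the PBS range. Tfe3 fell in LPS, with -0.55 (SE 0.08, adjusted p = 0.000119), and further in LPS/IFNγ, with -0.91 (SE 0.08, adjusted p = 2.17e-06). In dsHMGB1 the value was -0.06 (SE 0.08, adjusted p = 0.552), and without PBS replicate 3 it was -0.15 and called lower. LPS/IFNγ was below LPS by a log2 difference of -0.36 (SE 0.08, adjusted p = 0.027).

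Mitf (ENSMUSG00000035158, chr6:97807052-98021349) encodes the family member best known from pigment cells, mast cells and osteoclasts. It had 5197, 5508 and 2802 normalized counts in PBS, 5212, 4836 and 5219 in frHMGB1, 10652, 14303 and 11432 in dsHMGB1, 10943, 11895 and 10972 in LPS, and 12660, 12213 and 12706 in LPS/IFNγ. All libraries of dsHMGB1, LPS and LPS/IFNγ lay above all those of PBS and frHMGB1. Mitf rose by 1.43 (SE 0.21, adjusted p = 0.000111) after dsHMGB1, 1.32 (SE 0.21, adjusted p = 0.000193) after LPS and 1.48 (SE 0.21, adjusted p = 5.63e-05) after LPS/IFNγ on the log2 scale. These 3 stimulations did not differ from each other in Mitf by the test, with log2 differences of 0.11 ± 0.21 (± standard error) for dsHMGB1 against LPS and -0.05 ± 0.21 for dsHMGB1 against LPS/IFNγ.

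The fourth factor of the family, Tfec, is no member but belongs to the 85 further lysosome genes. It is largely restricted to macrophages and related cells. Tfec stood at 686, 748 and 1008 normalized counts in PBS, 740, 739 and 739 in frHMGB1, 11275, 10601 and 10573 in dsHMGB1, 9623, 9968 and 9696 in LPS, and 5367, 5064 and 5348 in LPS/IFNγ. Its rise was 3.74 (SE 0.12, adjusted p = 1.61e-11) after dsHMGB1, 3.59 (SE 0.12, adjusted p = 1.38e-11) after LPS and 2.70 (SE 0.12, adjusted p = 1.19e-10) after LPS/IFNγ. The LPS/IFNγ libraries lay between those of PBS and those of LPS, a log2 difference from LPS of -0.89 (SE 0.12, adjusted p = 3.68e-05).

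**Figure D4:**
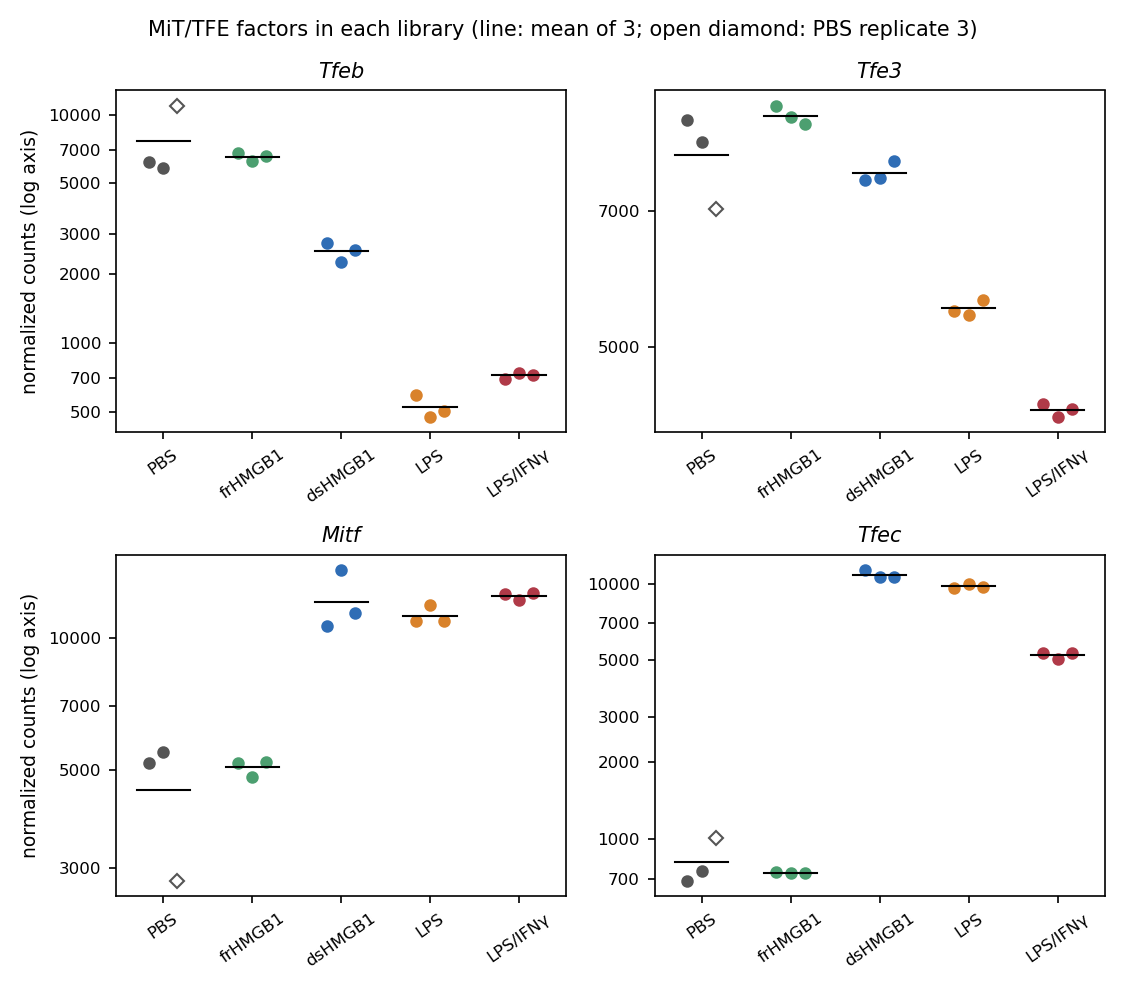
Panels show normalized counts (log axis) of the MiT/TFE factors Tfeb, Tfe3, Mitf and Tfec in the 15 libraries, with a line at the mean of 3 and an open diamond for PBS replicate 3. In LPS, Tfeb lies at 475 to 591 and Tfec at 9623 to 9968, against 5831 to 10900 and 686 to 1008 in PBS.

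Of 13 cathepsins and other proteases, 1 was called higher (7.69%, against 23.3% of all genes) and 6 lower (46.2%, against 24.2%) after dsHMGB1. In LPS these were 1 (7.69%, against 26.7%) and 5 (38.5%, against 36.2%). In LPS/IFNγ they were 1 (7.69%, against 29.0%) and 8 (61.5%, against 31.2%). The gene that rose was Ctsc (ENSMUSG00000030560, chr7:88278085-88310888), which encodes cathepsin C, the dipeptidyl peptidase that activates the serine proteases of granules. Ctsc stood at 2999, 2907 and 1701 normalized counts in PBS, 3985, 3694 and 3341 in frHMGB1, 27097, 29652 and 27732 in dsHMGB1, 34674, 36019 and 35485 in LPS, and 26546, 25443 and 26799 in LPS/IFNγ. The PBS and frHMGB1 libraries lay far below the others, with no overlap. The rise was 3.47 (SE 0.18, adjusted p = 6.85e-09) after dsHMGB1, 3.80 (SE 0.18, adjusted p = 2.03e-09) after LPS and 3.37 (SE 0.18, adjusted p = 5.04e-09) after LPS/IFNγ, or 3.25, 3.58 and 3.14 without PBS replicate 3.

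Ctsd (ENSMUSG00000007891, chr7:142375911-142388038) encodes the main lysosomal aspartic protease. It had 509600, 477890 and 1507900 normalized counts in PBS, 511470, 506820 and 501260 in frHMGB1, 432930, 338110 and 380630 in dsHMGB1, 318780, 325500 and 335750 in LPS, and 262130, 256450 and 264970 in LPS/IFNγ. PBS replicate 3 lay 1.61 log2 units above the mean of the other PBS libraries, farther up than for any other member. Ctsd fell by the test in dsHMGB1, with -1.12 (SE 0.34, adjusted p = 0.00934), in LPS, with -1.35 (SE 0.34, adjusted p = 0.0015), and in LPS/IFNγ, with -1.67 (SE 0.34, adjusted p = 0.000368). With only PBS replicates 1 and 2 the log2 fold changes shrank to -0.37, -0.60 and -0.93, and all remained called.

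Ctsk (ENSMUSG00000028111, chr3:95499256-95509362) encodes cathepsin K, a collagen-degrading enzyme abundant in osteoclasts. Its values were 2907, 2822 and 5271 normalized counts in PBS, 2989, 3138 and 3029 in frHMGB1, 1988, 1552 and 1702 in dsHMGB1, 1801, 1768 and 1648 in LPS, and 1546, 1508 and 1685 in LPS/IFNγ. All libraries of dsHMGB1, LPS and LPS/IFNγ lay below those of PBS and frHMGB1. The 7 osteoclast markers that are no members summed to 136 to 214 CPM in PBS, 161 to 171 after dsHMGB1, 74.6 to 78.3 after LPS and 119 to 123 after LPS/IFNγ. They did not move together: Itgb3 fell with -1.66, -2.55 and -2.42, and Mmp9 rose with 1.90, 0.72 and 0.56. Dcstamp had 0.47, -0.56 and -0.93, all called, and Nfatc1 -0.48, -0.35 and 1.18, the last called. Calcr, Oscar and Ocstamp had few counts. The part of these markers was not tested. Ctsk fell with -1.07 (SE 0.21, adjusted p = 0.000256) after dsHMGB1, -1.08 (SE 0.21, adjusted p = 0.000105) after LPS and -1.21 (SE 0.21, adjusted p = 4.68e-05) after LPS/IFNγ, and without PBS replicate 3 with -0.72, -0.73 and -0.87.

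Ctsb, an abundant cysteine cathepsin at 862280 to 1070000 normalized counts over all libraries, had log2 fold changes of -0.14, -0.10 and -0.16 in dsHMGB1, LPS and LPS/IFNγ, of which the last passed the test (adjusted p = 0.0479). With PBS replicates 1 and 2 alone these were -0.17, -0.12 and -0.18, all called. Ctss, which trims the invariant chain of MHC class II, had -0.24, -0.14 and -0.24, and none of these passed. All were called lower with library totals as scaling, at -0.51, -0.79 and -0.84 for Ctsb and -0.57, -0.81 and -0.90 for Ctss. Ctsl, a broad endopeptidase, fell in dsHMGB1 (-0.44) and LPS/IFNγ (-0.39) but had 0.24 in LPS, not called, or 0.46, called, without PBS replicate 3, and -0.42 with library totals as scaling. Without PBS replicate 3 the called values of Ctsl shrank to -0.22 and -0.17. It stood at 142690 to 146500 normalized counts in LPS and differed by -0.69 (SE 0.15, adjusted p = 0.00148) for dsHMGB1 against LPS and by -0.63 (SE 0.15, adjusted p = 0.00226) for LPS/IFNγ against LPS. Legumain (Lgmn), an asparaginyl endopeptidase that processes cathepsins, fell with -0.46, -0.28 and -0.36, and Ctsf with -0.73, -0.68 and -0.76. Both shrank without PBS replicate 3, Lgmn to -0.20, -0.03 and -0.11, of which the second was not called, and Ctsf to -0.41, -0.36 and -0.44, all called. Ctsa fell with -0.36, -0.31 and -0.40, or -0.17, -0.12 and -0.21 without PBS replicate 3, but shares 495 exonic bases with Pltp on the other strand. Ctsz turned with PBS replicate 3: its log2 fold changes of -0.03, 0.15 and -0.34 did not pass, and without that library they were 0.56, 0.74 and 0.25 and all called higher. Tpp1, whose loss causes a form of neuronal ceroid lipofuscinosis, went from 0.04, 0.07 and 0.15, not called, to -0.36, -0.33 and -0.26, called lower. Ctsh was called lower in LPS/IFNγ, with -0.42, or -0.16 without PBS replicate 3. Ctse was the least abundant member, at 21.1 to 208 normalized counts, and was called in no comparison with all libraries.

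Most glycosidases, which take sugars off glycoproteins and glycolipids, fell. With all libraries 7 of 8 were called lower after dsHMGB1 (87.5%, against 24.2% of all genes) and 7 after LPS (87.5%, against 36.2%). After LPS/IFNγ 6 were (75.0%, against 31.2%). No member of the role was called higher over PBS, against 23.3%, 26.7% and 29.0% of all genes in the same order. The counts called lower were 8, 7 and 7 when PBS replicate 3 was left out (29.0%, 38.3% and 34.4% of all genes). Neu1 (ENSMUSG00000007038, chr17:34931253-34935953) encodes the lysosomal sialidase. Neu1 stood at 6179, 5751 and 9222 normalized counts in PBS, 6640, 7038 and 6650 in frHMGB1, 4309, 3692 and 4015 in dsHMGB1, 2720, 2961 and 3041 in LPS, and 1923, 1910 and 2039 in LPS/IFNγ. The conditions stepped down from PBS through dsHMGB1 and LPS to LPS/IFNγ without overlap. Neu1 fell with -0.82 (SE 0.16, adjusted p = 0.000172) after dsHMGB1, -1.28 (SE 0.16, adjusted p = 1.18e-06) after LPS and -1.85 (SE 0.16, adjusted p = 4.05e-08) after LPS/IFNγ. It was higher in dsHMGB1 than in LPS by 0.46 (SE 0.16, adjusted p = 0.00961) and lower in LPS/IFNγ than in LPS, with -0.57 (SE 0.16, adjusted p = 0.0079).

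Gusb (ENSMUSG00000025534, chr5:129989011-130003049) encodes beta-glucuronidase. It had 38497, 39137 and 44069 normalized counts in PBS, 41535, 38594 and 40476 in frHMGB1, 26100, 24523 and 26082 in dsHMGB1, 22470, 22905 and 23304 in LPS, and 20741, 21028 and 21205 in LPS/IFNγ. The groups followed the order of Neu1, and PBS replicate 3 lay near the other PBS libraries. The fall was -0.67 (SE 0.06, adjusted p = 3.08e-06) after dsHMGB1, -0.83 (SE 0.06, adjusted p = 1.20e-07) after LPS and -0.95 (SE 0.06, adjusted p = 4.20e-08) after LPS/IFNγ. Leaving out PBS replicate 3 gave -0.61, -0.77 and -0.90.

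Manba (ENSMUSG00000028164, chr3:135485611-135571404) encodes beta-mannosidase. Its values were 2838, 2828 and 2058 normalized counts in PBS, 3035, 2856 and 2887 in frHMGB1, 1655, 1670 and 1777 in dsHMGB1, 1000, 1063 and 1219 in LPS, and 1460, 1415 and 1402 in LPS/IFNγ. LPS was the lowest condition, and LPS/IFNγ lay between LPS and dsHMGB1. Manba fell with -0.60 (SE 0.13, adjusted p = 0.00201) after dsHMGB1, -1.24 (SE 0.13, adjusted p = 2.10e-06) after LPS and -0.85 (SE 0.13, adjusted p = 7.00e-05) after LPS/IFNγ, and was higher in LPS/IFNγ than in LPS by 0.38 (SE 0.13, adjusted p = 0.0362).

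Gaa, the acid alpha-glucosidase that breaks down glycogen, fell with -0.47, -0.79 and -0.69, and Hexa, a beta-hexosaminidase subunit, with -0.62, -0.72 and -0.91. When PBS replicate 3 was left out the Hexa values were -0.16, -0.26 and -0.45, still called. Gla, alpha-galactosidase A, fell in dsHMGB1 (-0.61) and LPS (-0.54) but had 0.10 (SE 0.05, adjusted p = 0.387) in LPS/IFNγ, and LPS/IFNγ was above LPS by 0.64 (SE 0.05, adjusted p = 1.49e-05). Glb1, beta-galactosidase, fell with -0.35, -0.23 and -0.35. If PBS replicate 3 was left out the Glb1 values were -0.14, -0.02 and -0.15, and that in LPS was not called. Man2b1, alpha-mannosidase, turned from 0.09, 0.12 and 0.09, not called, to -0.19, -0.16 and -0.19, called lower.

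**Figure D5:**
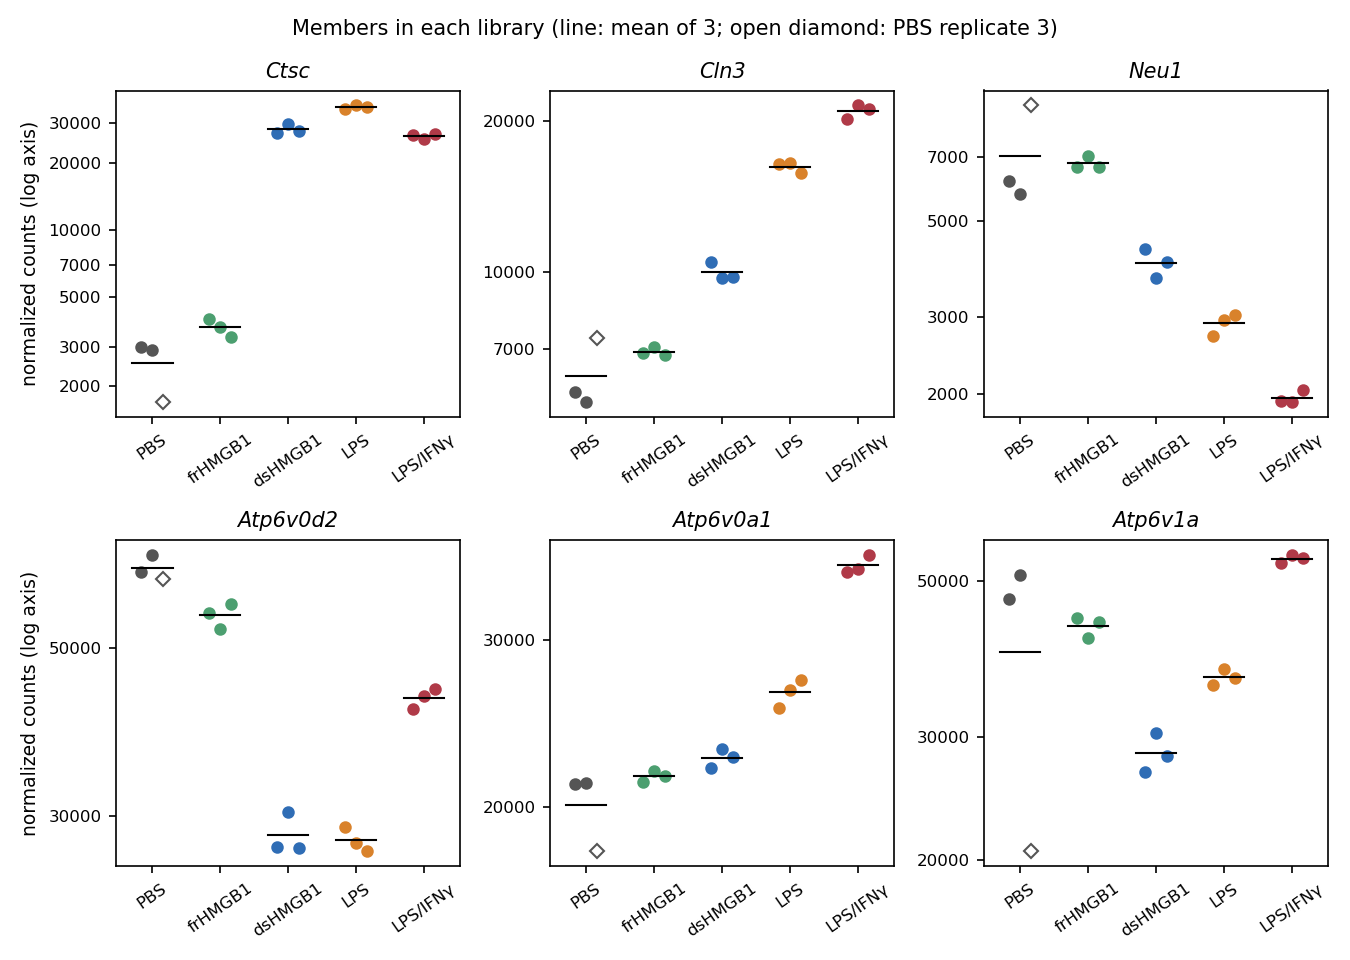
Panels show normalized counts (log axis) of 6 members in the 15 libraries, with a line at the mean of 3 and an open diamond for PBS replicate 3. Ctsc and Cln3 rise, Neu1 steps down to 1910 to 2039 in LPS/IFNγ, and the V-ATPase genes Atp6v0d2, Atp6v0a1 and Atp6v1a are each higher in LPS/IFNγ than in dsHMGB1.

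Of the 8 lipid-handling genes, 4 were called lower after dsHMGB1, 6 after LPS and 4 after LPS/IFNγ with all libraries. Of all genes, 24.2%, 36.2% and 31.2% were called lower in the same order. None of the 8 was then called higher over PBS, against 23.3%, 26.7% and 29.0% of all genes. When PBS replicate 3 was left out, 7, 7 and 6 were lower (29.0%, 38.3% and 34.4% of all genes). In that setting 1 was higher in each, against 29.8%, 32.9% and 33.3% of all genes. The gene called higher was Npc2, which hands cholesterol to NPC1. Smpd1 (ENSMUSG00000037049, chr7:105554360-105558389) encodes acid sphingomyelinase. Smpd1 stood at 2254, 2124 and 3018 normalized counts in PBS, 2297, 2051 and 2239 in frHMGB1, 1256, 1284 and 1383 in dsHMGB1, 897, 1045 and 1028 in LPS, and 1004, 1014 and 973 in LPS/IFNγ. Every dsHMGB1 library lay below every PBS library and above every LPS and LPS/IFNγ library. The fall was -0.91 (SE 0.13, adjusted p = 1.58e-05) after dsHMGB1, -1.32 (SE 0.13, adjusted p = 1.96e-07) after LPS and -1.30 (SE 0.13, adjusted p = 2.54e-07) after LPS/IFNγ.

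Lipa (ENSMUSG00000024781, chr19:34492318-34527474) encodes lysosomal acid lipase, which frees cholesterol and fatty acids from lipoproteins. It had 116930, 120370 and 64568 normalized counts in PBS, 121500, 117970 and 124160 in frHMGB1, 74117, 88859 and 83982 in dsHMGB1, 58177, 57254 and 56390 in LPS, and 60688, 60213 and 60687 in LPS/IFNγ. PBS replicate 3 lay between the LPS/IFNγ and dsHMGB1 libraries, far below the other PBS libraries. Lipa fell in LPS, with -0.81 (SE 0.19, adjusted p = 0.00126), and in LPS/IFNγ, with -0.73 (SE 0.19, adjusted p = 0.00336). In dsHMGB1 it had -0.29 (SE 0.19, adjusted p = 0.196), and without PBS replicate 3 the values were -0.53, -1.06 and -0.98, all called.

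Npc1 encodes the membrane protein that exports cholesterol from lysosomes. Its values were 17278, 18000 and 4932 normalized counts in PBS, 15350, 13724 and 14091 in frHMGB1, 8527, 11400 and 11129 in dsHMGB1, 7337, 7963 and 8167 in LPS, and 8334, 8852 and 8676 in LPS/IFNγ. PBS replicate 3 was the lowest of all 15 libraries, while PBS replicates 1 and 2 were the highest. Npc1 fell in LPS, with -0.78 (SE 0.34, adjusted p = 0.0428), and had -0.37 (SE 0.34, adjusted p = 0.35) in dsHMGB1 and -0.64 (SE 0.34, adjusted p = 0.101) in LPS/IFNγ. From PBS replicates 1 and 2 alone the values -0.77, -1.18 and -1.04 were all called, as was -0.29 in frHMGB1.

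Psap, the precursor of the saposins that help sphingolipid hydrolases, fell with -0.36, -0.57 and -0.33, and was higher in LPS/IFNγ than in LPS by 0.23 (SE 0.06, adjusted p = 0.0186). Gm2a, the GM2 ganglioside activator, fell with -0.23, -0.66 and -0.31. Ppt1, a palmitoyl-protein thioesterase, fell in dsHMGB1 (-0.37) and LPS (-0.31) and had 0.14 in LPS/IFNγ, not called. It shares 129 exonic bases with Cap1 on the other strand, which rose with 0.73, 1.03 and 1.16 in the same comparisons. Npc2 had -0.10, 0.44 and 0.15 with all libraries, none called, and 0.35, 0.88 and 0.59 without PBS replicate 3, all called. With library totals as scaling and all libraries, the Npc2 value in LPS/IFNγ was -0.48. Asah1, acid ceramidase, had -0.01, -0.16 and 0.23, none called, and without that library -0.32, -0.47 and -0.09, all called lower.

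The V-ATPase subunits did not move together. Atp6v0d2 (ENSMUSG00000028238, chr4:19876841-19922605) encodes a membrane-sector subunit found mainly in osteoclasts and macrophages. It stood at 63115, 66594 and 61874 normalized counts in PBS, 55778, 53123 and 57333 in frHMGB1, 27267, 30318 and 27161 in dsHMGB1, 28985, 27574 and 26886 in LPS, and 41523, 43292 and 44223 in LPS/IFNγ. The libraries of dsHMGB1 and LPS overlapped, and those of LPS/IFNγ lay between them and PBS. Atp6v0d2 fell with -1.18 (SE 0.07, adjusted p = 7.37e-08) after dsHMGB1, -1.20 (SE 0.07, adjusted p = 2.45e-08) after LPS and -0.57 (SE 0.07, adjusted p = 3.51e-05) after LPS/IFNγ, and was higher in LPS/IFNγ than in LPS by 0.63 (SE 0.07, adjusted p = 6.27e-05).

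Atp6v0a1 (ENSMUSG00000019302, chr11:101009452-101063719) encodes a subunit of the proton path. It had 21147, 21210 and 17936 normalized counts in PBS, 21221, 21804 and 21579 in frHMGB1, 21971, 23003 and 22547 in dsHMGB1, 25445, 26590 and 27210 in LPS, and 35395, 35636 and 36950 in LPS/IFNγ. LPS lay above PBS and LPS/IFNγ above LPS, without overlap. Atp6v0a1 rose in LPS, with 0.39 (SE 0.07, adjusted p = 0.00753), and in LPS/IFNγ, with 0.84 (SE 0.07, adjusted p = 4.89e-06), and had 0.16 (SE 0.07, adjusted p = 0.199) in dsHMGB1. With library totals as scaling the value in LPS turned to -0.31 and was called lower, and in LPS/IFNγ it was 0.14 and not called.

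Atp6v1a (ENSMUSG00000052459, chr16:44085402-44139705) encodes the catalytic subunit that hydrolyses ATP. Its values were 47166, 51086 and 20600 normalized counts in PBS, 44263, 41492 and 43680 in frHMGB1, 26718, 30359 and 28194 in dsHMGB1, 35548, 37493 and 36442 in LPS, and 53072, 54582 and 53984 in LPS/IFNγ. PBS replicate 3 was the lowest library, and LPS/IFNγ lay above LPS and dsHMGB1. No comparison with PBS passed the test, with -0.48 after dsHMGB1, -0.12 after LPS and 0.44 after LPS/IFNγ. From PBS replicates 1 and 2 alone, -0.79 in dsHMGB1 and -0.44 in LPS were called lower. Atp6v1a was lower in dsHMGB1 than in LPS/IFNγ by the test, with -0.92 (SE 0.25, adjusted p = 0.0123).

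Atp6v1h, a regulatory subunit of the ATPase sector, rose with 0.27, 0.51 and 0.53, but with library totals as scaling these were -0.07, -0.17 and -0.14 and not called. Atp6v1b2, the other main subunit of the catalytic head, had 0.11, -0.06 and -0.14, none called, and 0.04, -0.13 and -0.21 without PBS replicate 3, called lower in LPS and LPS/IFNγ.

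Among the 6 membrane proteins, 2 were called higher in each of dsHMGB1, LPS and LPS/IFNγ, Cln3 and Lamp2 in each case. That was 33.3% each time, against 23.3%, 26.7% and 29.0% of all genes. Called lower were 1, 2 and 1 (16.7%, 33.3% and 16.7%, against 24.2%, 36.2% and 31.2% of all genes). Cln3 (ENSMUSG00000030720, chr7:126571207-126585817) encodes battenin, the protein lost in juvenile Batten disease. Cln3 stood at 5749, 5486 and 7363 normalized counts in PBS, 6884, 7064 and 6821 in frHMGB1, 10469, 9695 and 9763 in dsHMGB1, 16406, 16519 and 15738 in LPS, and 20218, 21493 and 21106 in LPS/IFNγ. Values stepped up from dsHMGB1 through LPS to LPS/IFNγ without overlap. The rise was 0.69 (SE 0.10, adjusted p = 3.12e-05) after dsHMGB1, 1.39 (SE 0.10, adjusted p = 2.71e-08) after LPS and 1.76 (SE 0.10, adjusted p = 1.84e-09) after LPS/IFNγ. The steps passed the test as well, with -0.70 (SE 0.10, adjusted p = 0.00015) for dsHMGB1 against LPS and 0.37 (SE 0.10, adjusted p = 0.00448) for LPS/IFNγ against LPS. Cln3 shares 442 exonic bases with Apobr on the other strand, which rose with 0.48, 0.84 and 0.94 in the same comparisons. The libraries kept the strand, but the sources used here do not say whether the counting did, so reads of the pair may be mixed.

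Lamp2 (ENSMUSG00000016534, chrX:38401357-38456454) encodes a heavily glycosylated protein that lines the lysosomal membrane. It had 26694, 27848 and 17069 normalized counts in PBS, 28507, 28092 and 28850 in frHMGB1, 34111, 37806 and 30808 in dsHMGB1, 41251, 39828 and 37892 in LPS, and 45347, 44142 and 46102 in LPS/IFNγ. All libraries of dsHMGB1, LPS and LPS/IFNγ lay above those of PBS. Lamp2 rose with 0.52 (SE 0.16, adjusted p = 0.022) after dsHMGB1, 0.73 (SE 0.16, adjusted p = 0.00327) after LPS and 0.92 (SE 0.16, adjusted p = 0.000376) after LPS/IFNγ. Leaving out PBS replicate 3 gave 0.33, 0.53 and 0.72, all called. With library totals as scaling the values were 0.13, 0.01 and 0.21, and none was called.

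Cd63 (ENSMUSG00000025351, chr10:128900989-128912822) encodes a tetraspanin of lysosomes and exosomes. Its values were 44728, 41100 and 115950 normalized counts in PBS, 51249, 51860 and 51333 in frHMGB1, 51787, 38246 and 42558 in dsHMGB1, 60352, 58599 and 59806 in LPS, and 51216, 48465 and 48797 in LPS/IFNγ. PBS replicate 3 was the highest of all libraries. No comparison passed the test with all libraries, with -0.61 after dsHMGB1, -0.17 after LPS and -0.44 after LPS/IFNγ. Without PBS replicate 3, Cd63 was called higher in LPS with 0.47 and in frHMGB1 with 0.27. With library totals as scaling it was called lower in dsHMGB1 (-0.89), LPS (-0.79) and LPS/IFNγ (-1.05). Lamp1, whose window above held CACGTG 4 times, was called in no comparison with all libraries, with -0.02 after dsHMGB1, 0.14 after LPS and 0.00 after LPS/IFNγ. With PBS replicates 1 and 2 alone, -0.11 and -0.09 were called lower in dsHMGB1 and LPS/IFNγ. Laptm5, a lysosomal protein of blood cells, fell in dsHMGB1 (-0.20) and LPS (-0.33), and without PBS replicate 3 also in LPS/IFNγ (-0.10).

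Mcoln1, the lysosomal calcium channel TRPML1, was the one member called in frHMGB1. It stood at 3745, 3627 and 3465 normalized counts in PBS and at 4390, 4516 and 4647 in frHMGB1, a log2 difference of 0.32 (SE 0.06, adjusted p = 0.0246). The groups did not overlap, but the adjusted p was 0.0622, 0.0918 and 0.108 without frHMGB1 replicate 1, 2 or 3, and 0.308 without a filter on low counts. In LPS and LPS/IFNγ Mcoln1 fell with -0.19 and -0.21, and without PBS replicate 3 it was called lower in dsHMGB1 too, with -0.17. For frHMGB1, the 6 members called higher without PBS replicate 3 were Ctsc, Ctsz, Lamp1, Cd63, Mcoln1 and Cln3, and the 5 called lower were Gla, Npc1, Gm2a, Atp6v0d2 and Atp6v1a. Their log2 fold changes were between -0.29 and 0.32. In the same setting the frHMGB1 log2 ratio also varied with exon length. The Spearman rho was -0.41 over protein-coding genes and -0.22 over the 43 members, and the part of length in these calls was not tested.

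Per base of exon, Psap, Ctss and Ctsd were the most abundant members in PBS, at 23430 ± 6416, 20620 ± 1621 and 20150 ± 7247 length-scaled CPM (SD, n = 3), a spread that came mostly from PBS replicate 3. Psap stood at 27210 and 27050 in PBS replicates 1 and 2 and at 16020 in PBS replicate 3, Ctss at 20890, 22080 and 18880, and Ctsd at 16290, 15650 and 28510. PBS replicates 1 and 2 thus gave the order Psap, Ctss, Ctsd without overlap, which PBS replicate 3 did not share. Ctsb followed at 10790 ± 3192, and Ctse was lowest at 2.47 ± 1.98.

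dsHMGB1 and LPS both act through the receptor TLR4. In dsHMGB1 against LPS, 10 of 43 members were called higher (23.3%, against 15.8% of all genes) and 2 lower (4.65%, against 10.6%). The 10 were Gaa, Neu1, Gusb, Manba, Lipa, Smpd1, Psap, Gm2a, Tfeb and Tfe3, and the 2 were Ctsl and Cln3. By role these were 4 of 8 glycosidases, 4 of 8 lipid-handling genes and 2 of 3 regulators. Among the 10, Manba came next after Tfeb in size, with 0.64 (SE 0.13, adjusted p = 0.00199), and Lipa followed with 0.52 (SE 0.19, adjusted p = 0.04). The 10 became 5 without LPS replicate 1 and 6 without dsHMGB1 replicate 1. Leaving out PBS replicate 3 gave 15 higher and 11 lower, beside 25.6% and 23.3% of all genes. Library totals as scaling gave 18 higher (41.9%) and 2 lower (4.65%), beside 27.5% and 5.23% of all genes.

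In dsHMGB1 against LPS/IFNγ, 7 members were called higher (16.3%, against 16.5% of all genes) and 6 lower (14.0%, against 16.7%), shares near the background. Higher were Gaa, Neu1, Gusb, Smpd1, Atp6v1b2, Tfeb and Tfe3, with Neu1 at 1.03 (SE 0.16, adjusted p = 3.31e-05) and Tfe3 at 0.85 (SE 0.08, adjusted p = 1.60e-05). Lower were Gla, Ppt1, Atp6v0d2, Atp6v0a1, Atp6v1a and Cln3. Of the 5 V-ATPase members, 3 were thus lower and 1 higher in dsHMGB1. Library totals as scaling gave 24 higher (55.8%) and 3 lower (6.98%), beside 28.4% and 9.83% of all genes. Under it Atp6v0d2 (-0.28) and Atp6v1a (-0.60) were no longer called, whereas Atp6v0a1 (-0.35) stayed lower and Atp6v1b2 (0.57) stayed higher. Leaving out PBS replicate 3 gave 15 higher and 11 lower, beside 27.9% and 25.4% of all genes.

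In LPS/IFNγ against LPS, 9 members were called higher (20.9%, against 16.3% of all genes) and 3 lower (6.98%, against 9.36%). Higher were Gla, Manba, Psap, Gm2a, Ppt1, Atp6v0d2, Atp6v0a1, Laptm5 and Cln3, and lower were Ctsl, Neu1 and Tfe3. Of these, Gla differed by 0.64 (SE 0.05, adjusted p = 1.49e-05) and Ctsl by -0.63 (SE 0.15, adjusted p = 0.00226). When PBS replicate 3 was left out, 14 were higher and 12 lower, beside 25.1% and 24.3% of all genes.

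The 85 further lysosome genes were also listed with earlier results of these data known. Listed by function, they comprised other hydrolases, transporters, V-ATPase subunits, sorting receptors, nutrient-sensing regulators and cathepsin inhibitors. In frHMGB1, 0 were called in either direction by edgeR (1.31% and 5.69% of all genes were higher and lower). At an unadjusted p under 0.05 edgeR gave 11 higher and 3 lower, and DESeq2 called 8 and 1, again without computed shares of all genes. In dsHMGB1, 15 were called higher (17.6%, against 23.3% of all genes) and 29 lower (34.1%, against 24.2%). In LPS 17 (20.0%, against 26.7%) were higher and 35 (41.2%, against 36.2%) lower. In LPS/IFNγ 17 (20.0%, against 29.0%) were higher and 36 (42.4%, against 31.2%) lower. The median log2 fold change was -0.12, -0.10 and -0.20 in these 3 comparisons (all genes: -0.10, -0.21 and -0.12). If PBS replicate 3 was left out, 21 were higher and 3 lower in frHMGB1 (24.7% and 3.53%, against 8.41% and 9.09% of all genes). The calls were then 25 and 39 after dsHMGB1 (29.4% and 45.9%, against 29.8% and 29.0%). After LPS they were 27 and 43 (31.8% and 50.6%, against 32.9% and 38.3%), and after LPS/IFNγ 24 and 45 (28.2% and 52.9%, against 33.3% and 34.4%).

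The largest rise among them was that of Cst7, which encodes cystatin F, an inhibitor that acts on cathepsin C. Cst7 stood at 23.9, 10.1 and 22.3 normalized counts in PBS, 49.2, 57.2 and 17.3 in frHMGB1, 1406, 1136 and 1153 in dsHMGB1, 3146, 2756 and 2928 in LPS, and 1656, 1560 and 1791 in LPS/IFNγ. The PBS and frHMGB1 libraries lay far below all others, at counts low enough that the size of the rise is uncertain. Cst7 rose with 6.06 (SE 0.32, adjusted p = 1.27e-08) after dsHMGB1, 7.32 (SE 0.32, adjusted p = 1.71e-09) after LPS and 6.50 (SE 0.32, adjusted p = 3.98e-09) after LPS/IFNγ.

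The falls of greatest size were those of Tpcn1, Sgsh, Rragd and Fnip2. Tpcn1, a two-pore channel of endolysosomes, fell with -2.20 ± 0.20 after dsHMGB1 (± standard error), -2.84 ± 0.20 after LPS and -2.46 ± 0.20 after LPS/IFNγ. Sgsh, which takes sulfate off heparan sulfate, fell with -2.12 ± 0.09 in dsHMGB1. Rragd, a small GTPase that signals amino acids to mTORC1 and a known target of TFEB, fell with -2.83 ± 0.16 in LPS. Fnip2, a partner of folliculin, fell with -2.56 ± 0.24 in LPS/IFNγ.

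Between the stimulations, Ctns, the cystine exporter, was higher in dsHMGB1 than in LPS by 1.17 (SE 0.19, adjusted p = 0.000375), and Acp5, the tartrate-resistant acid phosphatase, was lower by -1.70 (SE 0.14, adjusted p = 5.65e-07). Acp2, another acid phosphatase, was higher in dsHMGB1 than in LPS/IFNγ by 1.56 (SE 0.07, adjusted p = 3.27e-08), as was Gnptab, which makes the mannose 6-phosphate tag, by 1.38 (SE 0.24, adjusted p = 0.000463). Pla2g15, a lysosomal phospholipase, had 17102, 16896 and 22315 normalized counts in PBS, 18498, 16769 and 17400 in frHMGB1, 9134, 7764 and 8207 in dsHMGB1, 4026, 3966 and 4254 in LPS, and 15948, 15663 and 16184 in LPS/IFNγ. Its LPS libraries were the lowest and its LPS/IFNγ libraries lay just below PBS, with 1.96 (SE 0.12, adjusted p = 1.78e-08) for LPS/IFNγ against LPS. Slc36a1, a lysosomal amino acid transporter, was also higher in LPS/IFNγ, by 1.22 (SE 0.23, adjusted p = 0.000995). Tcirg1, the V-ATPase subunit of osteoclasts that stands in for the Atp6v0a1 product, stood at 37854, 33829 and 49614 normalized counts in PBS, 46874, 48853 and 46715 in frHMGB1, 50367, 46175 and 46972 in dsHMGB1, 71365, 66553 and 64730 in LPS, and 25913, 26811 and 27476 in LPS/IFNγ. It was highest in LPS and lowest in LPS/IFNγ, with -1.34 (SE 0.13, adjusted p = 1.38e-06) for LPS/IFNγ against LPS, the opposite direction to Atp6v0a1.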

How the data were processed

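Count values were used as the authors deposited them: whole-number read counts per gene for 15 libraries, not normalized, in 1 table of 51763 Ensembl identifiers, of which 51661 were in GENCODE M21 (GRCm38). Per the submitters' processing notes, base calling used CASAVA, alignment STAR and the comparison DESeq2, on GRCm38. Which program counted the reads, and with which strand setting, was not given in the sources used here. Libraries were stranded mRNA preparations. Total counts were 40934540 to 80925478 per library.

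Calls came from edgeR 4.0.16 (quasi-likelihood F test, TMM, filterByExpr with a minimum count of 10 and a minimum total of 15, all 15 libraries in one fit, Benjamini-Hochberg over 16919 genes, threshold 0.05). Log2 fold changes, standard errors and normalized counts came from DESeq2 1.42.0 (unshrunken), in R 4.3.3. The fits were tested on simulated data. Length-scaled values divided counts by the summed exon length and were then scaled to the same total in every library. No 2 replicates agreed within sampling noise (chi-square per degree of freedom 4.31 to 763).

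The members and lists were chosen with earlier results of these data known. Values in every library were given for the regulators and, per other role, the 3 members with the widest range of condition means (at least 100 normalized counts on average). Of the other lysosome genes, the 2 largest called rises and falls per comparison were named. Genes named beyond this (the partners Apobr, Pltp and Cap1, and the markers) were chosen after their values were seen. Alternatives are given in the closing section. Coordinates are those of GENCODE M21 and, for promoters, RefSeq on GRCm38.p6.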

Additional observations from a re-analysis of the deposited data

How the results depend on the processing

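With each pair of conditions fitted alone, members called higher and lower numbered 0 and 0 in frHMGB1 (all genes: 0.047% and 1.22%). In dsHMGB1 they numbered 3 and 8 (6.98% and 18.6%, against 15.7% and 14.2% of all genes). In LPS they were 6 and 13 (14.0% and 30.2%, against 24.7% and 24.5%), and in LPS/IFNγ 6 and 10 (14.0% and 23.3%, against 26.2% and 22.4%). For dsHMGB1 against LPS they were 14 and 7 (32.6% and 16.3%, against 25.3% and 21.7%). For dsHMGB1 against LPS/IFNγ they were 14 and 11 (32.6% and 25.6%, against 27.7% and 27.6%). For LPS/IFNγ against LPS they were 17 and 17 (39.5% each, against 31.0% and 30.1%). The single frHMGB1 call (Mcoln1) became 0 without a filter, with protein-coding genes only, with total-count scaling and with the replicate number as a block, while DESeq2 called 3 higher and 3 lower and a minimum of 1 CPM in 3 libraries gave 1 lower. The replicate block and RLE normalization left every other count within 1.5 times (block: 20 lower in dsHMGB1, 22 in LPS, 21 in LPS/IFNγ). Same-numbered libraries share only a number: of 30 pairs of deviations from the condition means, 1 correlated above 0.1 (range -0.39 to 0.37). The cause of the differences between settings was not tested.

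Total-count scaling, added after seeing the data, gave 3 higher in each of dsHMGB1, LPS and LPS/IFNγ, 18 higher in dsHMGB1 against LPS, and 24 higher and 3 lower in dsHMGB1 against LPS/IFNγ. A value counts as reversed where its sign changed and either of the fits called it. Sign changes called in neither fit are not listed. Total-count scaling reversed Ctsl (-0.42), Man2b1 (-0.62), Atp6v0a1 (-0.31), Atp6v1h (-0.17) and Lamp1 (-0.57) in LPS. In LPS/IFNγ it reversed Gla (-0.58), Man2b1 (-0.64), Npc2 (-0.48), Ppt1 (-0.54) and Atp6v1h (-0.14), and in dsHMGB1 Atp6v1h (-0.07). For dsHMGB1 against LPS, Gla (0.26) and Ppt1 (0.27) were reversed. For dsHMGB1 against LPS/IFNγ, Ctsl (0.27), Psap (0.29) and Laptm5 (0.24) were. The median of all genes moved as given above, and from 0.07 to 0.35 and 0.03 to 0.33 in the comparisons with dsHMGB1. The cause was not tested.

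Over single libraries left out, calls ranged over 0 to 6 higher and 0 to 5 lower in frHMGB1, 4 to 7 and 15 to 30 in dsHMGB1, 6 to 10 and 19 to 27 in LPS, 6 to 8 and 19 to 29 in LPS/IFNγ, 5 to 15 and 2 to 11 in dsHMGB1 against LPS, 5 to 15 and 6 to 11 in dsHMGB1 against LPS/IFNγ, and 6 to 14 and 3 to 12 in LPS/IFNγ against LPS. The upper ends are without PBS replicate 3. In dsHMGB1 against LPS the 10 called higher became 5 without LPS replicate 1 and 6 without dsHMGB1 replicate 1. Without PBS replicate 1, 2 members were called higher in frHMGB1, and without any one frHMGB1 library 0. Some log2 fold changes (edgeR) were reversed, as defined above, without PBS replicate 3. In frHMGB1 these ranged over -0.53 to 0.23 (Ctsz), -0.30 to 0.38 (Npc1), -0.19 to 0.36 (Atp6v1a) and -0.58 to 0.26 (Cd63). In dsHMGB1 they ranged over -0.23 to 0.53 (Ctsz), -0.39 to 0.28 (Tpp1), -0.22 to 0.25 (Man2b1) and -0.25 to 0.32 (Npc2). In LPS they ranged over -0.21 to 0.23 (Man2b1) and -0.45 to 0.42 (Cd63). In LPS/IFNγ they ranged over -0.55 to 0.19 (Ctsz), -0.32 to 0.37 (Tpp1), -0.26 to 0.23 (Man2b1) and -0.15 to 0.41 (Asah1). The cause was not tested. Of the members' 301 log2 fold changes, none was reversed by DESeq2, RLE normalization, either other filter, protein-coding genes only, separate pairs, the block or leaving out any library but PBS replicate 3. As a share of protein-coding counts the members took 10.29% in PBS and 5.01% in LPS. Replicates of a single pool limit every p-value to technical spread.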
